A study of Drosophila melanogaster with 384 samples.

Results

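The nuclear-encoded subunits of respiratory complexes II, III, IV and V were described in neuroblasts, the neural stem cells of the Drosophila melanogaster larval brain. The members were chosen by listed symbol, matched to the gene IDs of the count table, and all 35 were found among 14219 features. Of these, 4 belong to complex II, 9 to complex III, 9 to complex IV and 13 to complex V. A symbol matched directly for 34, and COX6A matched as a synonym of levy. Single cells were sorted from dissociated central brains of third-instar larvae aged 6 to 7 days and kept at 29 °C, and their RNA was amplified by SMART-Seq2, a full-length method that primes on poly(A) tails. All larvae carried UAS-Dcr2, inscGal4 and UAS-CD8::GFP, in which insc-Gal4 drives expression in neuroblasts. Control larvae also carried sh-mCherry, a hairpin against a protein that flies lack, and tumor larvae carried sh-brat, a hairpin against the growth regulator Brat, whose loss leaves daughter cells neuroblast-like. Plates 1 and 2 came from 1 pool of 5 control brains and plates 3 and 4 from 1 pool of 3 tumor brains. The study is known for asking whether such tumors differ from normal neuroblasts in oxidative metabolism.

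Oxidative phosphorylation passes electrons along protein complexes in the inner mitochondrial membrane and uses the proton gradient they build to make ATP. Complex II, succinate dehydrogenase, oxidizes succinate and reduces ubiquinone. Complex III passes electrons from ubiquinol to cytochrome c, and complex IV passes them from cytochrome c to oxygen. Complex V, the ATP synthase, lets protons back through a rotating ring and makes ATP. Complexes III, IV and V also hold subunits encoded in the mitochondrial genome, whereas complex II is made from nuclear genes alone. Normal neuroblasts of the larval brain are known to use oxidative phosphorylation.

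Cells with at least 100000 reads and 1000 genes were kept, 89 and 91 on the control plates and 93 and 92 on the tumor plates, with 126882 to 2329488 reads each. At an equal depth of 100000 reads the median was 5013.5 genes per control cell and 3165 per tumor cell. The 6 neuroblast markers were all above 5 counts per 1000000 reads (CPM) in both pools, and together they took 0.362% to 0.412% of the reads of a control plate and 0.689% to 0.723% of those of a tumor plate. Of the 5 glial markers repo and alrm were at or near 0 in both pools, while loco stood at 30.95 CPM in the control pool and 45.9 in the tumor pool, moody at 0.662 and 1.19, and gcm at 2.17 and 9.35, all of the tumor reads of gcm being on plate 4. All 5 took 0.00297% to 0.00381% of a control plate's reads and 0.00464% to 0.00678% of a tumor plate's. Of the 5 neuronal markers elav, fne and Syt1 were higher in tumor, at 97.2 and 247 CPM, 17.3 and 103.5 CPM, and 16.9 and 23.7 CPM, and brp and nSyb lower, at 0.616 and 0.0342 CPM and 3.32 and 0.660 CPM. The 5 neuronal markers took 0.0118% to 0.0152% of a control plate's reads and 0.0364% to 0.0387% of a tumor plate's, and the part of either list in the results below was not tested. The targeted gene brat stood at 312 and 374 CPM on the control plates and at 93.6 and 81.9 CPM on the tumor plates. Every cell of a group comes from the same pool of brains, so the cells are not replicates and neither tests nor p-values are given. The plates are split by group, the effects of plate and of group cannot be told apart, and the spread is shown by the 4 ratios of a tumor plate to a control plate. The 95% intervals of levels cover only the counting of reads, which include PCR copies. Those of shares of cells take the cells of a pool as independent draws and cover no difference between brains or plates. A lower value per 1000000 reads can come from less of a transcript or from more of the others, and these cannot be told apart.

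Per length of exon, the ATP synthase ring gene led in both pools. ATPsynC (FBgn0039830, chromosome 3R, 31216145 to 31219630 in BDGP6), which encodes the c subunit of the rotating ring, had the highest level of complex V, 2513 CPM per 1000 exon bases in control and 1061 in tumor. In complex IV, COX7A had the highest level per length in control cells (2154), and COX8 had it in tumor cells (801). The complex III gene UQCR-Q was at 1489 in control and 442 in tumor on this scale, and in complex II SdhC was at 607 in control and 355 in tumor. The lowest levels per length were those of UQCR-11, the hinge subunit of complex III (104.4 in control and 79.4 in tumor), and of ATPsyndelta, an F1 subunit of complex V (169.6 in control and 85.6 in tumor). SdhB and COX7C were lowest in control within complexes II and IV, at 185.6 and 559.9. The order of the 35 levels per length was alike in the pools, with a Spearman correlation of 0.85 across genes, while plates 1 and 2 gave 0.94 and plates 3 and 4 gave 0.99. Genes are not independent replicates, and these values are descriptions.

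**Figure D1:**
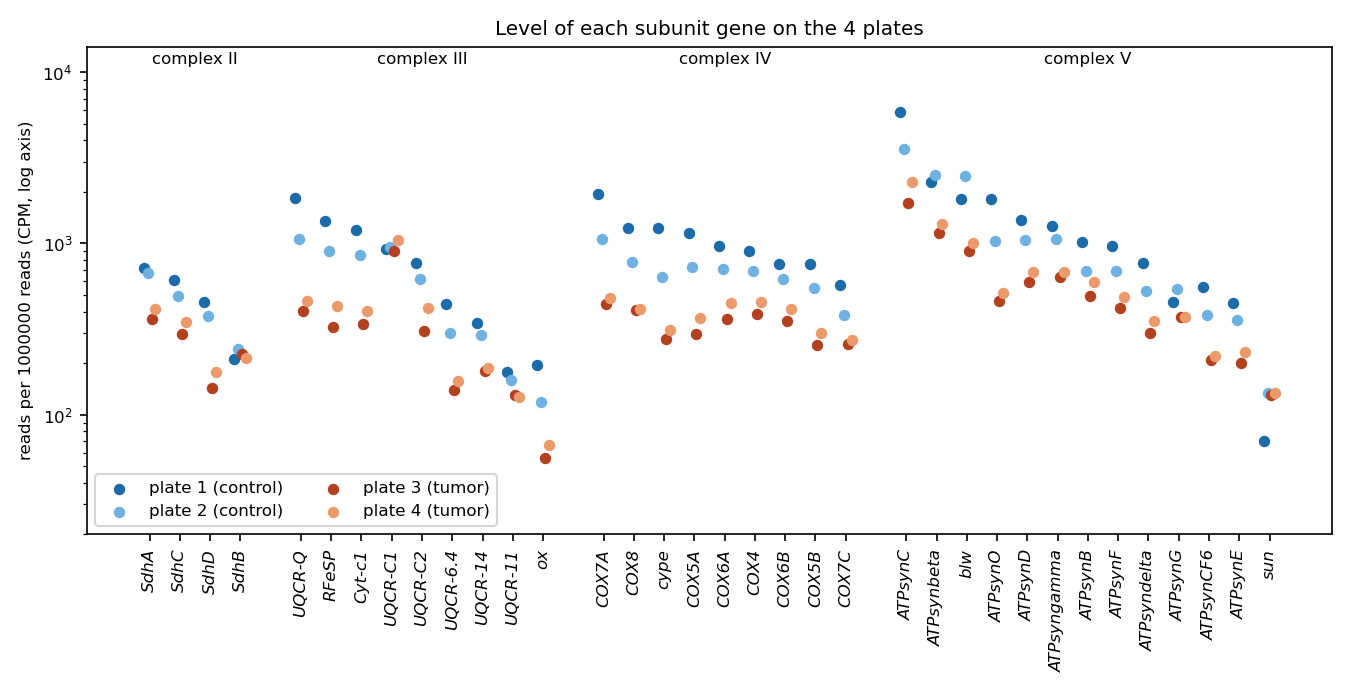
Level of each of the 35 genes on the 4 plates, in CPM on a log axis, grouped by complex and ordered by the control level. Blue points are the control plates and red points the tumor plates. Both tumor plates lie below both control plates for 32 genes, with SdhB, UQCR-C1 and sun as the exceptions.

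Most of these genes were lower in tumor cells. Summed over the 35, their reads made up 3.28% of the control pool and 1.55% of the tumor pool, 2.11-fold less. Plates 1 to 4 gave 3.74%, 2.81%, 1.44% and 1.68%, so the tumor plates lay below both control plates. Of the 35 genes, the level of 16 was at least 2-fold lower in the tumor pool and that of 0 at least 2-fold higher. Over all 6450 tested genes these shares were 14.7% and 13.1%. In all 4 plate pairs, 7 members were at least 2-fold lower, against 7.57% of all tested genes, and 32 were lower by any size, against 35.1%. The median log2 ratio was -0.97, and -1.21 to -0.64 over the plate pairs, while the median over all tested genes was -0.001. By the median over cells the members' median was -1.11, but there the median of all tested genes was -1.38, 55.9% of them were at least 2-fold lower and 11 members lay below that median.

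The plates of a group also differed. In control, plate 2 was lower than plate 1 for 29 of the 35, with a median log2 ratio of -0.46. Among all 6450 tested genes, 3475 were lower on plate 2 than on plate 1, with a median of -0.06. In tumor, plate 4 was higher than plate 3 for 33 members and lower for 2, with a median of 0.20. Of all tested genes, 2849 were lower on plate 4 than on plate 3, with a median of 0.06. No member differed 2-fold between plates of a group, against 665 tested genes in control and 435 in tumor. The pairs with plate 1 therefore gave the larger differences: their medians were -1.21 and -1.01, against -0.89 and -0.64 with plate 2. The member with the fewest reads, ox, had an interval of 54.5 to 57.3 CPM around 55.9 CPM on plate 3. This was small beside the difference between plates. It treats PCR copies as separate reads, and the error in counting molecules was not measured.

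Complex II was split among its 4 genes. SdhD (FBgn0039112, chromosome 3R, 23759483 to 23760600), a membrane anchor, stood at 458 and 375 CPM on the control plates and 142.9 and 176.5 CPM on the tumor plates. The plates did not overlap, and the log2 ratio was -1.39 (-1.68 to -1.09 over the pairs). SdhB, the iron-sulfur subunit, stood at 211 and 242 CPM on the control plates and 225 and 214 CPM on the tumor plates. Here the plates overlapped, and the log2 ratio was -0.04 (-0.18 to 0.09). SdhC, the other membrane anchor, stood at 609.7 and 490.1 CPM on the control plates and 297 and 349 CPM on the tumor plates, with a log2 ratio of -0.78. SdhA, the flavoprotein that binds succinate, was at 696 CPM in control against 385 in tumor (log2 ratio -0.85). The median log2 ratio of the complex was -0.82 (-1.02 to -0.60 over the pairs), with 1 of 4 genes at least 2-fold lower. Its genes took 0.189% of reads in control and 0.108% in tumor.

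Complex III held the lowest ratio of all 35 genes and also a gene whose plates overlapped. UQCR-Q (FBgn0036728, chromosome 3L, 17474761 to 17476124), a small supernumerary subunit, stood at 1843 and 1056 CPM on the control plates and 405 and 461 CPM on the tumor plates. Its plates did not overlap, and it was 3.37-fold lower in tumor (log2 ratio -1.75, -2.19 to -1.20 over the pairs). UQCR-C1 (FBgn0038271, chromosome 3R, 14890231 to 14892387), a core protein, stood at 926 and 947 CPM on the control plates and 901 and 1048 CPM on the tumor plates. The plates overlapped, with a log2 ratio of 0.05 (-0.07 to 0.18). The partner core protein gene UQCR-C2 did not share this level, at 764 and 616 CPM on the control plates and 307 and 419 CPM on the tumor plates (log2 ratio -0.94). Both nuclear-encoded redox subunits were at least 2-fold lower in all 4 pairs. RFeSP, the Rieske iron-sulfur protein, stood at 1357 and 901 CPM on the control plates and 324 and 432 CPM on the tumor plates and was 3.02-fold lower in the tumor pool. Cyt-c1, cytochrome c1, stood at 1189.7 and 854 CPM on the control plates and 338 and 405 CPM on the tumor plates and was 2.77-fold lower. Among the other small subunits, ox and UQCR-6.4 had log2 ratios of -1.36 and -1.32, and UQCR-14 had -0.80. All exon bases of UQCR-14 lie opposite CG32576, and 40.5% of those of UQCR-6.4 opposite POSH, and no source used here says if reads were counted by strand. UQCR-11 stood at 178.2 and 158.6 CPM on the control plates and 129.8 and 126.2 CPM on the tumor plates, with a log2 ratio of -0.40. In all, 5 of 9 genes were at least 2-fold lower and the median was -1.32 (-1.66 to -0.83).

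All 9 complex IV genes were lower in tumor cells on every plate pair. These nuclear subunits surround the catalytic core, which is encoded in the mitochondrial genome. COX7A (FBgn0040529, chromosome 3R, 8339944 to 8341043) stood at 1942 and 1055 CPM on the control plates and 444 and 480.04 CPM on the tumor plates, a log2 ratio of -1.70 (-2.13 to -1.14). Next came cype, the fly COX6C, at 1237 and 635 CPM on the control plates and 275 and 312 CPM on the tumor plates, with a log2 ratio of -1.68 (-2.17 to -1.02). COX5A, COX8, COX5B and COX6A followed with log2 ratios of -1.50, -1.29, -1.24 and -1.05. These 6 were the ones at least 2-fold lower, 2 of them in all 4 pairs. COX4 and COX7C were at -0.93 and -0.85. The highest ratio of the complex was that of COX6B, at 753 and 616 CPM on the control plates and 354 and 416 CPM on the tumor plates (log2 ratio -0.84, -1.09 to -0.57). COX8 stood at 1231 and 781 CPM on the control plates and 408 and 413 CPM on the tumor plates, and COX7C at 571 and 383 CPM on the control plates and 259 and 271 CPM on the tumor plates, with no overlap for either. The median was -1.24 (-1.57 to -0.88), and the summed reads went from 0.783% in control to 0.324% in tumor, 2.42-fold less.

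**Figure D2:**
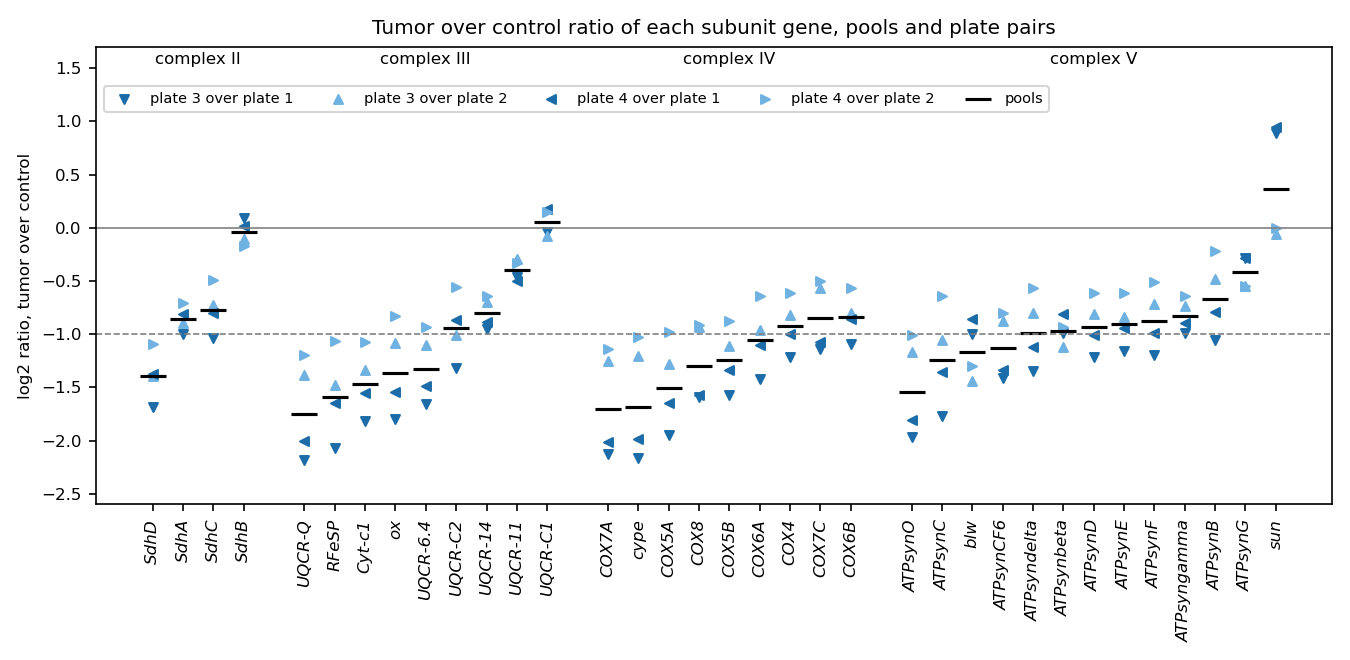
Log2 ratio of tumor over control for each gene, ordered within its complex. Black bars are the pooled ratios, triangles are the 4 plate pairs, and dark and light blue mark pairs with control plate 1 and control plate 2. The solid line is equality and the dashed line a 2-fold lower level. Pooled ratios run from -1.75 for UQCR-Q to 0.37 for sun, and for most genes the pairs with plate 1 lie below those with plate 2.

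In complex V, 12 of 13 genes were lower in all 4 pairs and 4 were at least 2-fold lower in the pools. ATPsynO (FBgn0016691, chromosome 3R, 15265591 to 15266690), the stalk subunit that joins the catalytic head to the stator, had the lowest ratio and stood at 1807 and 1035 CPM on the control plates and 462 and 515 CPM on the tumor plates (log2 ratio -1.55, 4 of 4 pairs at least 2-fold lower). ATPsynC, the most abundant member, stood at 5826 and 3549 CPM on the control plates and 1713 and 2281 CPM on the tumor plates (log2 ratio -1.24). Of its exon bases 7.60% overlap other annotated features on the same strand. The catalytic head genes blw (F1 alpha) and ATPsynbeta (F1 beta) had log2 ratios of -1.17 and -0.97. Unlike most members, both were higher on control plate 2 than on plate 1: blw stood at 1816 and 2469.8 CPM on the control plates and 908 and 1006 CPM on the tumor plates and ATPsynbeta at 2279.7 and 2492 CPM on the control plates and 1147 and 1302 CPM on the tumor plates. ATPsyngamma, the rotating shaft, was at -0.82. ATPsyndelta stood at 769 and 524 CPM on the control plates and 302 and 354 CPM on the tumor plates, a log2 ratio of -0.99, and 35.6% of its exon bases overlap CG2962 on the other strand.

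The peripheral stalk and membrane subunits of the ATP synthase spanned a wide range. Among stalk genes the log2 ratio was -1.13 for ATPsynCF6, -0.93 for ATPsynD and -0.67 for ATPsynB. Among membrane subunits it was -0.90 for ATPsynE, -0.88 for ATPsynF and -0.42 for ATPsynG. The exception was sun (FBgn0014391, chromosome X, 15847859 to 15849258), the F1 epsilon subunit, whose product is also known in flies as a secreted ligand. It stood at 69.9 and 134.7 CPM on the control plates and 129.6 and 134.4 CPM on the tumor plates, so control plate 1 was low and the other 3 plates lay close together. The pooled log2 ratio of 0.37 rests on plate 1, since the pairs ran from -0.06 to 0.94 and those with plate 2 were near 0. The complex had a median of -0.93 (-1.16 to -0.62) and took 1.68% of reads in control and 0.818% in tumor.

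Most members were detected in most cells of both pools. Fewer genes of any kind were seen in tumor cells, with medians at equal depth of 5013.5 genes per control cell and 3165 per tumor cell. Thinned to 100000 reads, control cells had a median of 35 of the 35 genes detected (lowest cell 29), and tumor cells 34 (lowest cell 15). SdhB was the member seen least in control, with a read in 94.4% of the control pool's cells (exact interval 90.02 to 97.3) and 85.9% of the tumor pool's (80.1 to 90.6). The lowest share in tumor was that of SdhD, seen in 98.3% of the control pool's cells (exact interval 95.2 to 99.7) and 72.4% of the tumor pool's (65.4 to 78.7). Without thinning the shares for SdhD were 99.4% and 77.8%. A read of ox was found in 99.4% of the control pool's cells (exact interval 96.9 to 99.99) and 74.6% of the tumor pool's (67.7 to 80.7). UQCR-11, UQCR-14, SdhA, SdhB and ATPsynE were next in tumor cells, between 83.2% and 86.5%. COX8 and ATPsynC were seen in every kept cell of both pools. The glial gene repo, at the same depth, was seen in 0.556% of control cells and in 0 tumor cells, and the median depth was 1507070 reads in control and 1122670 in tumor before thinning.

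Cell by cell, the 35 genes took a smaller share of reads in most tumor cells. The median was 3.21% in control cells (1.24% to 8.50%) and 1.38% in tumor cells (0.681% to 7.07%). Plate medians were 3.68% and 2.79% for control and 1.28% and 1.49% for tumor. All but 3 tumor cells lay below the control median, 98.4% (exact interval 95.3 to 99.7), and 3 of 180 control cells lay below the tumor median. The ranges still overlapped, since 62.2% of tumor cells fell within the control range. In control, type II-like cells (8 cells, in which 3 or more of the genes pnt, btd, tll and Sp1 had 5 or more reads) had a median of 2.75%, and the other control cells 3.25%. Of these 8 cells 6 were on plate 2, where their median was 2.67% against 2.82% for the other cells, and the 2 on plate 1 were at 3.52% and 3.58%, against 3.68%. Most tumor cells were type II-like, with a median of 1.43%, and the 28 that were not had 1.17%. Taking type II-like cells alone, the members' median log2 ratio of tumor over control was -0.77, with 10 members at least 2-fold lower, against 15.2% of all tested genes in those cells. The plate pairs, split in these cells after seeing the data, gave medians of -1.18 and -0.97 against the 2 cells of plate 1, and of -0.74 and -0.50 against the 6 of plate 2.

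The number of genes seen in a cell moved with this share. In control cells, those with few genes often had the highest shares, and Pearson's r between the log2 summed level of the members and the genes detected at equal depth was -0.33 and -0.44 on plates 1 and 2. In tumor cells it was 0.39 and 0.29 on plates 3 and 4. Comparing only cells with 3500 to 5000 genes at equal depth, a range chosen after seeing the data, left 75 control and 56 tumor cells. Their median shares were 3.67% and 1.63%, the members' median log2 ratio was -0.94, and 16 members were at least 2-fold lower, against 16.7% of all tested genes. Of these control cells 63 were on plate 1 and 12 on plate 2, with median shares of 3.71% and 2.80%, and the tumor plates had 1.44% and 1.78%. The members' medians were -1.04 and -1.03 against plate 1 and -0.84 and -0.77 against plate 2. Leaving out cells under 2500 or under 3000 genes, limits also chosen after seeing the data, gave medians of -0.98 and -0.92. Then 17 and 16 members were at least 2-fold lower, against 13.2% and 12.65% of all tested genes. With the limit of 2500, plates 3 and 4 had 23 and 22 such members against plate 1 (18.4% and 15.6% of tested genes). Against plate 2 they had 11 and 7 (13.5% and 10.5%). With the limit of 3000 these were 20 and 18 (18.2% and 15.8%) against plate 1, and 10 and 3 (13.2% and 10.6%) against plate 2. The wells left out for low depth held members' reads too, 2.47% of the reads of 12 control wells and 0.464% of those of 7 tumor wells.

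**Figure D3:**
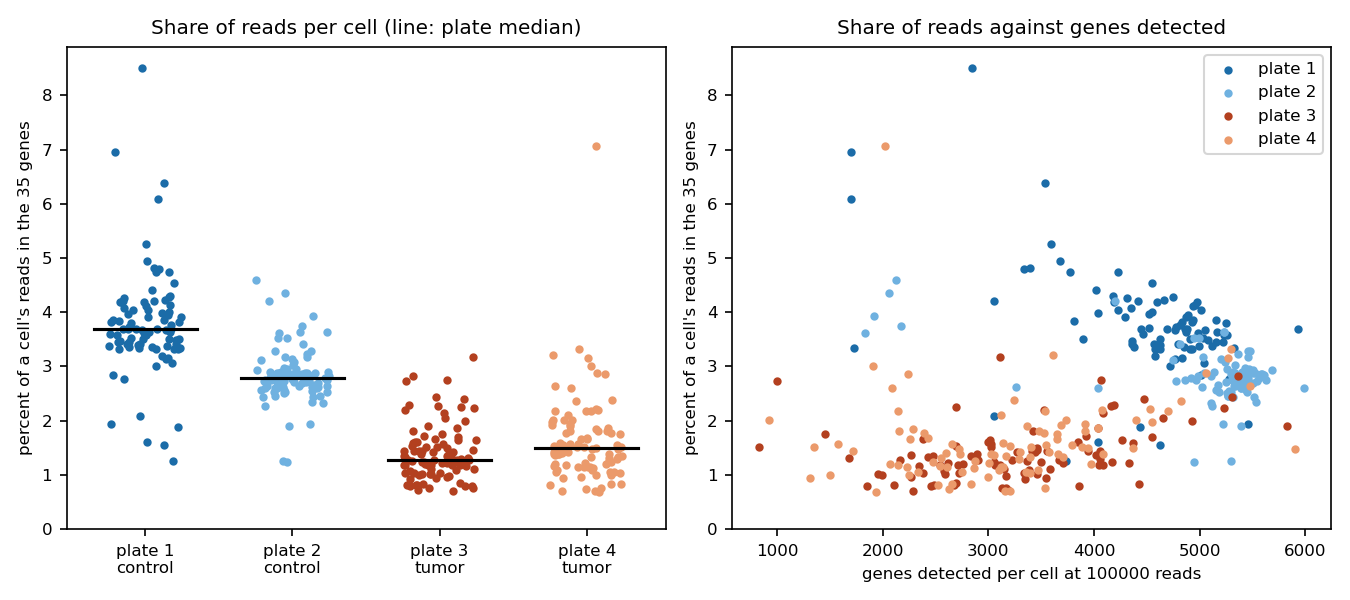
Percent of each kept cell's reads that came from the 35 genes, by plate (left, lines at the plate medians) and against the number of genes detected at 100000 reads (right). Each point is a cell. Plate medians are 3.68, 2.79, 1.28 and 1.49%, and most tumor cells lie below the control cells with similar numbers of genes.

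Short transcripts on the whole were lower in tumor cells, and most members are short. The median exonic length of the 35 was 894 bases, and 22 had under 1000. Among the 820 other tested genes under 1000 bases, 30.4% were at least 2-fold lower and the median log2 ratio was -0.55, against -1.09 for the 22 members. Within their own length class, 31 of the 35 lay below the median of the other tested genes. The exceptions in direction, UQCR-C1 and sun, had 1632 and 450 exon bases. Between the control plates, other genes of 500 to 750 bases had a median log2 ratio of -0.35 (plate 2 over plate 1) and those of 2500 bases or more 0.25. Over all 6225 tested genes with a length, the Spearman correlation of length with the ratio was 0.35, and within the 35 members it was 0.15. The part of transcript length in the members' ratios was not tested.

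**Figure D4:**
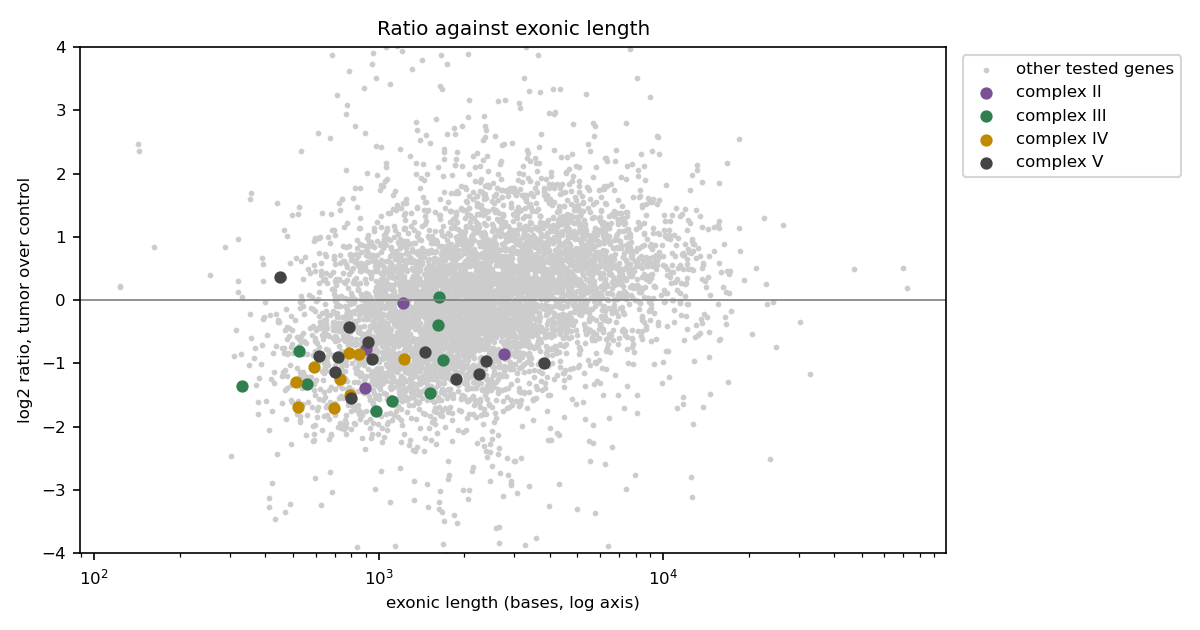
Log2 ratio of tumor over control against exonic length in bases, on a log axis, for tested genes with a length. Grey points are other tested genes and colored points the members by complex, and 87 other genes with a log2 ratio beyond 4 in size lie outside the plotted range. The members lie mostly at the short end and below 0.

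Most pairs of members correlated positively from cell to cell within a plate. The mean Pearson correlation of log2(CPM + 1) over the 595 pairs of members was 0.28 in control cells (0.30 and 0.26 on the plates) and 0.22 in tumor cells (0.21 and 0.23). For pairs of other tested genes the mean was 0.16 and 0.09. Pairs within other gene lists were as high or higher in several cases. The mean was 0.24 and 0.22 for complex I, 0.35 and 0.14 for mitochondrial and 0.28 and 0.31 for cytosolic ribosomal protein genes. For glycolysis genes it was 0.36 and 0.35, for replication genes 0.44 and 0.31, and for mitochondrially encoded genes 0.75 and 0.69. Members are abundant, and for the 454 other genes at or above the members' lower quartile of level it was 0.20 in control and 0.09 in tumor. After removal of log total reads and genes detected, the members' mean was 0.30 in control and 0.10 in tumor. That of the 454 abundant genes was then 0.09 and 0.04. Complex I genes had 0.21 and 0.06, and mitochondrial ribosomal protein genes 0.19 and 0.02. Cytosolic ribosomal protein genes had 0.32 and 0.24, glycolysis genes 0.25 and 0.33, replication genes 0.33 and 0.17, and mitochondrially encoded genes 0.70 and 0.70. Cells of a plate share depth and amplification, so these are descriptions of 89 to 93 cells a plate. Within complexes II, III, IV and V the means were 0.39, 0.26, 0.35 and 0.30 in control and 0.18, 0.18, 0.26 and 0.23 in tumor, against 0.27 and 0.22 for pairs of different complexes. After removal of reads and genes detected they were 0.14, 0.28, 0.42 and 0.28 in control and -0.02, 0.06, 0.15 and 0.11 in tumor. Pairs of different complexes then had 0.29 and 0.09, so complex II was below them.

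In control cells 92 of the 595 pairs had a correlation below 0, and the 3 lowest joined a shorter to a longer transcript. UQCR-Q and cype had the highest correlation, 0.87 (0.89 and 0.84 on the plates), and their exons span 975 and 522 bases. The F1 head genes blw and ATPsynbeta, with 2252 and 2386 exon bases, were at 0.81. Between these blocks the values were negative, -0.62 for cype with ATPsynbeta and -0.62 for cype with blw. The correlation of cype with each other member had a Spearman correlation of -0.54 with that member's exonic length, and for ATPsynbeta this was 0.58 (34 genes each). Without control cells under 2500 genes at equal depth, the value for cype with ATPsynbeta was 0.02 (-0.28 and 0.31 on the plates), and without those under 3000 it was 0.20, while UQCR-Q with cype stayed at 0.83 in both. The members' mean correlation in control was then 0.39 and 0.40. Leaving out these 8 or 9 control cells, a choice made after seeing the data, left 42 or 20 of the 595 pairs below 0, and cype with blw at -0.20 or -0.08. In tumor cells cype with ATPsynbeta was at 0.20, and 17 pairs were below 0. The highest tumor pairs were COX6B with sun (0.52) and ox with ATPsynC (0.50).

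**Figure D5:**
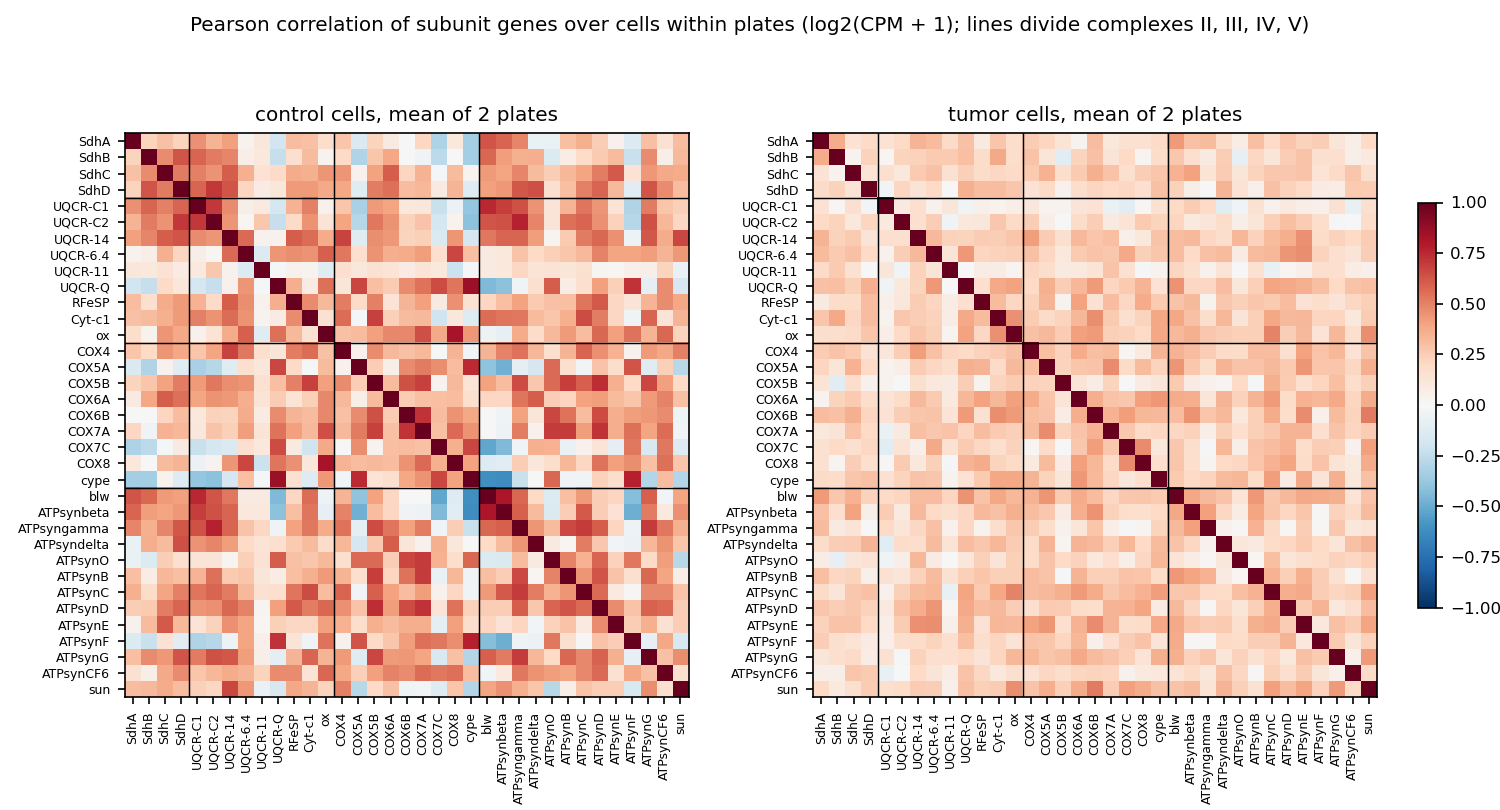
Pearson correlation of log2(CPM + 1) between the 35 genes over the cells of a plate, as the mean of both plates of control (left) and tumor (right). Color gives r from -1 to 1, and black lines divide complexes II, III, IV and V. Control cells show pairs from -0.62 to 0.87, and tumor pairs span -0.11 to 0.52.

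Summed by complex, all 6 pairs of complexes had a positive mean r over the cells of a plate. All kept cells enter the values of this paragraph, among them the control cells under 2500 genes at equal depth. Values without those cells are not given. In control cells r was 0.79 for III with IV, 0.69 for II with V, 0.66 for III with V, 0.39 for IV with V, 0.32 for II with III and 0.02 for II with IV (0.33 and -0.30 on the plates). In tumor cells it was 0.77 for IV with V, 0.64 for III with V, 0.62 for III with IV, 0.38 for II with III, 0.34 for II with IV and 0.28 for II with V. The summed level of all members followed that of complex I genes, at 0.93 in control and 0.78 in tumor. With mitochondrial ribosomal protein genes it was 0.78 and 0.52, and with glycolysis genes 0.27 and 0.19. Replication genes gave 0.26 in control and -0.10 in tumor. The summed level of the 4 mitochondrially encoded genes measured gave -0.17 in control (-0.33 and -0.01 on the plates) and 0.12 in tumor, while the mean over single pairs of a member and such a gene was 0.18 in control (0.06 and 0.29) and 0.10 in tumor.

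The measured subunits encoded in the mitochondrial genome were at similar or higher levels in tumor cells. Of mt:CoI, mt:CoII and mt:CoIII, which form the core of complex IV, and mt:ATPase8 of complex V, 0 were at least 2-fold lower or higher, with a median log2 ratio of 0.30 (0.16 to 0.46 over the pairs). mt:CoI stood at 3778 and 3677 CPM on the control plates and 3113 and 4101 CPM on the tumor plates, and these overlapped. mt:ATPase8 stood at 38.8 and 58.5 CPM on the control plates and 78.6 and 96.8 CPM on the tumor plates, with no overlap and both tumor plates above. The other partners, mt:Cyt-b and mt:ATPase6, were not analysed here. Among carriers that serve the ATP synthase, the ADP/ATP translocase gene sesB was at 1501 CPM in control against 1812 in tumor, porin, the outer membrane channel, at 1901 CPM in control against 1129 in tumor, and the phosphate carrier gene Mpcp2 at 526 CPM in control against 419.96 in tumor. Ant2, the second translocase, had a low level, 7.99 CPM in control against 24.8 in tumor.

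Paralogs of the members were rare. None of the 19 reached a mean of 5 CPM, and together they took 0.00165% of reads in control and 0.000486% in tumor. The highest was Cyt-c1L, at 7.61 CPM in control against 0.171 in tumor, followed by ATPsynepsilonL (3.98 CPM in control against 0.259 in tumor) and COX7AL (2.17 CPM in control against 0.474 in tumor). Reads of a member and a paralog of similar sequence may be shared between them.

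Assembly factors, which build the complexes, ranged from lower to higher in tumor cells. Of 11 measured, Coa8 alone was lower by at least 2-fold, and Cox17 and Ttc19 were higher by that much (median -0.12, -0.30 to 0.08 over the pairs). Coa8, a complex IV factor, was at 54.4 CPM in control against 22.6 in tumor, and Scox, which delivers copper to complex IV, at 213 CPM in control against 113.01 in tumor. The higher genes were Cox17, a copper chaperone (63.8 CPM in control against 163.8 in tumor), and Ttc19, a complex III factor (12.9 CPM in control against 34.5 in tumor). Among 8 regulators of mitochondrial genes, mtTFB2 alone was lower by at least 2-fold, and Myc, srl, foxo and ewg were higher by that much (median 0.83, 0.33 to 1.11 over the pairs). The growth regulator gene Myc was at 278 CPM in control against 1428 in tumor, and srl, the fly PGC-1, had a log2 ratio of 1.28 (0.17 to 2.36). The foxo gene was at 20.03 CPM in control against 44.98 in tumor, and ewg, the fly NRF-1, at 48.8 CPM in control against 103.8 in tumor. The transcription factor gene of mitochondria mtTFB2 was at 70.6 CPM in control against 31.1 in tumor, while TFAM, which packages mitochondrial DNA, was at 179.8 CPM in control against 203 in tumor, and Ets97D and clu had log2 ratios of 0.58 and 0.55.

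Other mitochondrial gene groups were lower as well. Of 40 complex I genes measured, 33 had a mean of at least 5 CPM, and of these 19 were at least 2-fold lower and 0 higher (median -1.02, -1.35 to -0.73 over the pairs), with ND-B17 at 344 CPM in control against 79.8 in tumor. Among 71 mitochondrial ribosomal protein genes, 21 were at least 2-fold lower and 0 higher (median -0.65). Their median exonic length was 783 bases. Short genes as a class gave a similar share. For the 820 tested non-members under 1000 bases it was 30.4%, and their median log2 ratio was -0.55. The share over all tested genes was 14.7%. The part of transcript length in the 21 was not tested. Of 87 cytosolic ribosomal protein genes 79 had a mean of at least 5 CPM, with a median of 0.63, and 5 were at least 2-fold higher and 1 lower. These lists were chosen with earlier results of these data known.

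Outside these lists, the genes with the highest mean correlation with the members had 387 to 1449 exon bases. The ranking used the mean within-plate correlation with the members' summed level. It covered 3240 genes seen in at least 50% of the cells of each plate. The genes were Neb-cGP (0.60), COX7B (0.57), Sumo (0.55), CG13364 (0.51), CG8860 (0.49), Prx5 (0.45), SmE (0.45) and SmD2 (0.44). Each had lower values on both tumor plates than on both control plates. SmE was at 0.80 and 0.62 on the control plates and 0.14 and 0.23 on the tumor plates. SmD2 was at 0.80 and 0.74 on the control plates and 0.08 and 0.14 on the tumor plates. COX7B, which is named for a complex IV subunit and was not in the list of members, was measured at 751 and 318 CPM in the control and tumor pools, a log2 ratio of -1.24. Neb-cGP was at 400.2 and 177.4 CPM, and Sumo, the small protein modifier, at 4441 and 1706 CPM. The highest value of any gene was that of RpL41, a ribosomal protein gene (0.62), whose log2 ratio was 0.30. Of the 40 most correlated genes, 7 were in the list of complex I genes, whose share of the 3240 genes was not counted.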

How the data were processed

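Read counts in whole numbers were deposited by the authors for each gene in each cell, and cell totals differ, so they are not normalized. The submitters' processing notes name BDGP6 and dm6 as builds. The sources used here do not give the aligner, the counter or whether strand was used. Libraries had 18 PCR cycles and no molecular identifiers, per the labels' protocols.

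Members and gene lists were chosen with earlier results of these data known. Every member is named, with plate values for the extremes of each complex, and other lists give up to 4 genes by size of ratio. Plates are runs of consecutive library numbers in the labels, each with a full set of 96 index pairs. Cells with under 100000 reads or 1000 genes were left out (12 control and 7 tumor wells), and no doublet caller was run. Reads were summed per pool (262976815 control, 204489558 tumor) and plate. Genes with a mean of at least 5 CPM were counted as tested, and 3 reads stood in for a sum of 0. Sums have exact Poisson and shares exact Clopper-Pearson intervals at 95%. Correlations used log2(CPM + 1) within plates. Exonic lengths, overlaps and coordinates came from Ensembl release 115 on BDGP6. A length counts each base in any annotated exon of the gene once, over all its transcripts. The pooled ratio was tested on simulated counts with planted changes. Other steps, such as thinning, correlations and length classes, were not tested in this way. Python 3.11.15, numpy 2.4.6, pandas 2.3.3, scipy 1.17.1, matplotlib 3.10.9, R 4.3.3 and edgeR 4.0.16 (TMM factors only) were used. Alternatives covered cell weights, scaling, thinning, cell filters, cell types and plates left out.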

Additional observations from a re-analysis of the deposited data

How the results depend on the processing

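The 20 alternatives each changed the cells, their weight, the scaling or the minimum level. In all of them 32 of 35 members stayed below 0, the exceptions being SdhB, UQCR-C1 and sun. At least 2-fold lower in all of them were 8, namely SdhD, UQCR-Q, RFeSP, Cyt-c1, COX5A, COX7A, cype and ATPsynO. These counts over settings were not made for all tested genes. The change of minimum level leaves the members' ratios as they are, and by the median over cells most tested genes were lower too. Leaving out each plate gave 11 (without plate 1) to 22 members (without plate 2 or 4) at least 2-fold lower, against 16, beside 12.5% to 17.6% of all tested genes, and median log2 ratios from -1.11 to -0.80. Over those settings the median ran from -0.92 to -0.70 for complex II, -1.57 to -0.96 for III, -1.45 to -0.93 for IV and -1.05 to -0.71 for V.

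With type II-like cells of both pools 10 members and 15.2% of all tested genes were at least 2-fold lower, and the medians of complexes III and IV were -0.91 and -0.84. The type II-like control set has 8 cells, 6 of them from plate 2, and the cause was not tested. Against those 6 cells 9 members were at least 2-fold lower on plate 3 and 1 on plate 4. The shares of all tested genes were 16.4% and 13.7%. Without cells under 3000 genes at equal depth, a limit added after seeing the data, the complex II median was -0.61. In cells with 3500 to 5000 genes, also added after seeing the data, the tumor cells' median share was 1.63%. The members' mean correlation in control was 0.39 and 0.40 without cells under 2500 and 3000 genes. In tumor cells it was 0.27 without cells under 3000 genes and 0.10 after removal of reads and genes detected, and the causes were not tested. By TMM factors 15 members and 13.5% of all tested genes were at least 2-fold lower. With no minimum level 27.4% of all genes were at least 2-fold lower, against 14.7%. No paired analysis was possible because each group is 1 pool of brains and the result comes from no test.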
